A study of Rattus norvegicus with 14 samples.

Results

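Gene expression in the abdominal aorta of rats with experimental preeclampsia (ExpPE) was compared to that of healthy pregnant rats (Pr). The comparison took in all 19357 genes of the array and 10 of the 14 animals of the study, 5 ExpPE and 5 Pr, with 1 array per animal. All animals were female outbred Wistar rats with a cannula in the jugular vein. ExpPE rats received lipopolysaccharide (LPS, a component of the outer membrane of Gram-negative bacteria) at 1 μg per kg bodyweight in 2 ml saline during 1 h on day 14 of pregnancy. Pr rats received the same volume of saline, and both groups were terminated on day 20 of pregnancy. The other 4 animals were saline-infused non-pregnant rats (NPr), which entered the estimate of the spread and are quoted as a reference level. No array of this set came from a non-pregnant rat given LPS. RNA came from the whole vessel, so that fewer cells of a type and less RNA per cell cannot be told apart.

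Preeclampsia is a disorder of pregnancy with high blood pressure and protein in the urine, in which the mother's endothelium is activated. A low dose of LPS given to a pregnant rat evokes similar signs. The large arteries adapt to pregnancy through smooth muscle tone, which ion channels and endothelial mediators set, and through remodelling of the wall. LPS itself is sensed by Toll-like receptor 4, which drives inflammatory cytokines and interferons.

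The groups rest on the column names of the annotated table of intensities, where LPS and saline stand beside each array. A second deposited table holds the same values, with a largest log2 gap of 7.2e-10, and there the sample titles of the 5 ExpPE and the 5 Pr arrays are exchanged. The files alone do not settle which is right for the animals. The study describes its groups in the direction of the column names, so that this direction is the likely one. Under the other titles every difference given here has the opposite sign. Animals are numbered within a group by their order in the annotated table. The array names hold a code of a letter and a number that no source used here explains. By its letter the Pr arrays stood apart from all others, so letter and group cannot be told apart, and ExpPE1 and ExpPE2 shared their letter with an NPr array and not with the other 3 ExpPE arrays.

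Levels are log2 intensities, and differences are ExpPE minus Pr on that scale. The wall was recognisable by its markers in both groups. Acta2, smooth muscle actin, ranged from 12.1 to 12.9 in ExpPE and from 12.3 to 12.97 in Pr rats. The endothelial receptor Tek ranged from 8.21 to 8.90 and from 8.42 to 8.72. The fat hormone Adipoq, at 10.8 to 12.0 and 10.9 to 11.9, and the red cell gene Hbb, at 12.2 to 13.3 and 11.8 to 13.2, were bright as well, so that RNA of fat and blood was measured with that of the wall.

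No gene passed an adjusted p under 0.05 (limma, Benjamini-Hochberg over all genes), and the smallest adjusted p was 0.574. Without adjustment, p was under 0.05 for 1642 genes, 8.48% of all. The study's own threshold joins that level of p to a fold change above 1.4 either way, and it was passed by 527 genes, 2.72% of those tested. Of these, 333 were higher (1.72%) and 194 lower (1%) in ExpPE compared to Pr rats. These calls carry no control of the false discovery rate, and "passed" below always refers to this threshold. The median size of the difference was 0.60 among the higher and 0.61 among the lower genes, and 23 and 11 genes differed by more than 1. All 5 ExpPE values lay above all 5 Pr values for 120 genes (0.62%) and below them for 98 genes (0.506%). Among the genes that passed, the groups did not overlap for 34 higher and 19 lower genes.

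The 2 directions were not spread evenly over bright and dim genes. Among the 9679 dimmer genes 285 genes passed as higher and 56 as lower, and the median difference over these genes was 0.13. Among the 9678 brighter genes the counts were 48 and 138, with a median difference of -0.08. The tilt came mainly from ExpPE2 and ExpPE4, whose dim genes were high and whose bright genes were low, while ExpPE3 leaned the other way. The 1188 genes of smell and taste receptors served as a measure of background. Their median difference was 0.12, and 938 of them were above 0. The 95th percentile of their mean level was 3.92, and 107 of the 333 higher and 15 of the 194 lower genes lay below that level. With quantile normalization applied once more 150 genes passed as higher and 237 as lower, so the share of higher calls fell from 63.2% to 38.8%. The part of this tilt in the results on dim genes was not tested otherwise.

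**Figure D1:**
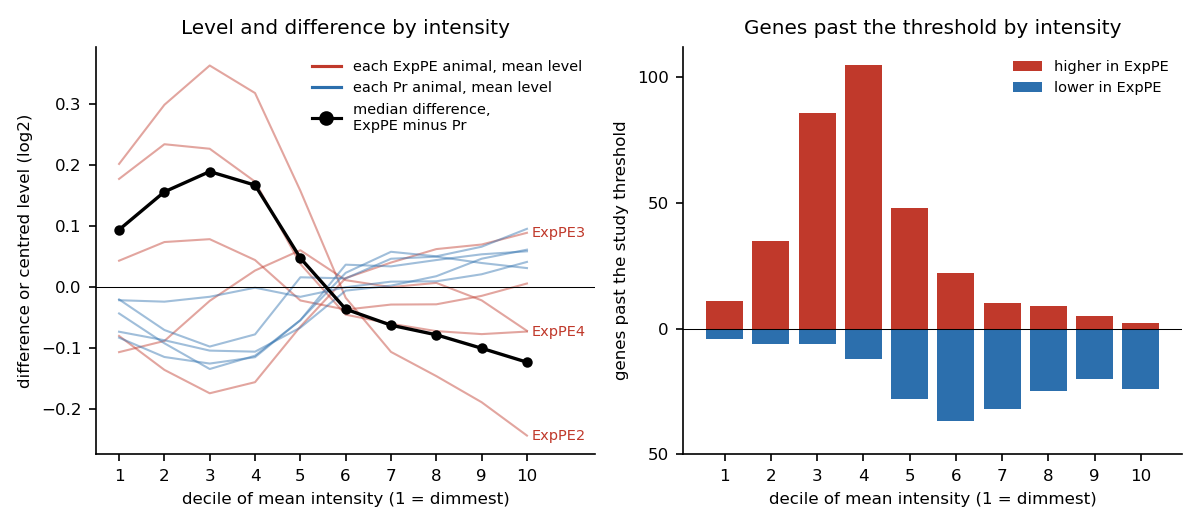
Left, for each decile of mean log2 intensity, the median difference between ExpPE and Pr over its genes (black) and the mean gene-centred level of each animal (red, ExpPE; blue, Pr). Right, genes past the study threshold in each decile. The median difference was 0.19 in decile 3 and -0.12 in decile 10, and most higher genes lay in deciles 3 to 5.

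A few animals gave most of the calls. Of the 333 higher genes, ExpPE1 had the highest level of its group in 139 and ExpPE2 in 106, against 59 for ExpPE4, 19 for ExpPE5 and 10 for ExpPE3. Of the 194 lower genes, Pr3 had the highest level of its group in 71, Pr4 in 52 and Pr2 in 36. Without ExpPE1 and ExpPE2, 469 genes passed, and only 99 of the higher and 72 of the lower genes were among them. Genes named below that lost their call without this pair are given with that value or are said not to have passed.

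Titin, Ttn, the giant spring protein of the sarcomere, had the largest difference among the genes that passed, and muscle fibre genes led the higher side. The level of Ttn was 10.8, 10.4, 7.06, 8.18 and 5.07 in ExpPE1 to ExpPE5 and 10.3, 4.07, 4.24, 4.09 and 3.66 in Pr1 to Pr5. All Pr values except that of Pr1 were thus lower than every ExpPE value, and Pr1 was as high as the highest ExpPE animals. Of the NPr rats, NPr3 was at 8.65 and the others were at 3.56 to 3.96. The difference was 3.03 with a standard error (SE) of 1.41 and an unadjusted p of 0.0495. With ExpPE1 and ExpPE2 left out it was 1.49 and no longer passed, with a p of 0.34. Tnni1, troponin I of slow fibres, differed by 1.71 and had its highest level, 9.15, in ExpPE1 against 4.67 to 6.20 in the other ExpPE rats. Without this pair its difference was 1.00 with a p of 0.097. Actc1, cardiac actin, had a lower spread. Its levels were 5.88, 5.53, 6.80, 6.21 and 6.07 in ExpPE and 5.88, 4.98, 4.91, 4.68 and 5.90 in Pr rats. The difference of 0.83 (SE 0.28) was 1.09 without ExpPE1 and ExpPE2. Myl7, the atrial light chain, passed as well with 0.50, but not without the pair (0.38). The embryonic and neonatal myosins Myh3 and Myh8 did not, with 0.42 and 0.38, and Myh3 lay below the background level.

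Among 23 slow, cardiac and embryonic sarcomere genes 4 passed as higher and 0 as lower, with a median difference of 0.96. None of 18 fast skeletal fibre genes passed although their median difference was 1.67. Their levels spread widely within both groups, and Pr1 was high along with ExpPE1 and ExpPE2. The list score, the mean of gene-centred levels over a list, was 2.32 in ExpPE1, 2.74 in ExpPE2 and 3.83 in Pr1 for the fast fibre genes. It was at most 0.23 in the other 7 pregnant animals. Of the NPr rats, NPr3 had a score of 0.91 and the others were at -1.96 or lower. Without ExpPE1 and ExpPE2 the median difference was 0.49, and without Pr1 as well it was 1.52 and 9 of the 18 passed. ExpPE3 and ExpPE4, with scores of -0.02 and 0.23, were also above Pr2 to Pr5, which ranged from -2.02 to -1.80. Smooth muscle contractile genes showed the reverse order. None of 18 passed, their median difference was -0.27, and the lowest score, -1.05, was that of ExpPE2. This median turned to 0.18 without ExpPE1 and ExpPE2. What part skeletal fibre in the sample had in the sarcomere results was not tested.

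**Figure D2:**
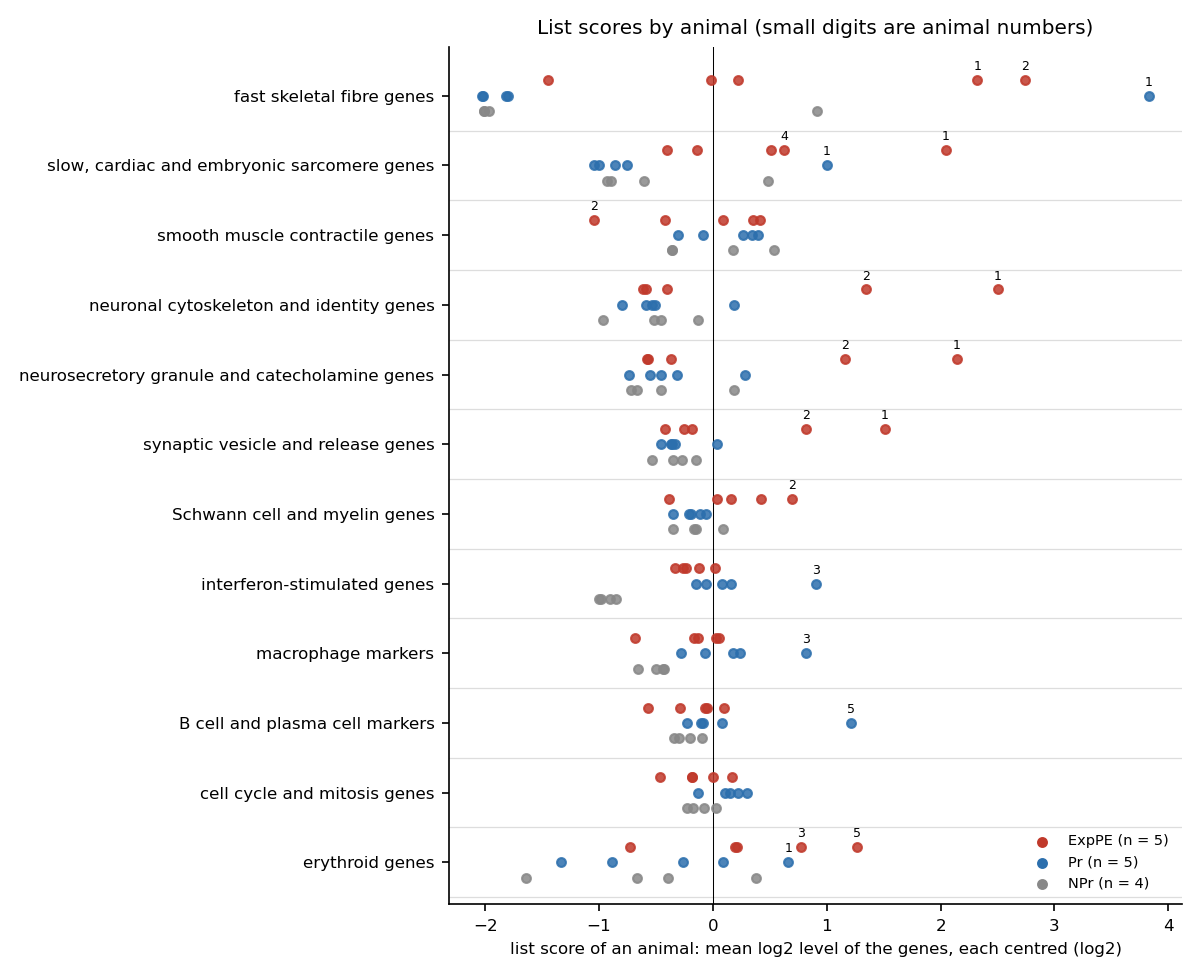
List scores of each animal (points) for 12 gene lists, by group, on a log2 axis. ExpPE1, ExpPE2 and Pr1 stand apart for fast fibre genes, ExpPE1 and ExpPE2 for the neuronal lists, and Pr3 for interferon-stimulated genes and macrophage markers.

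Ion channels set the membrane potential of smooth muscle and nerve. Kcna6, which encodes a delayed rectifier of the Kv1 family, was higher in ExpPE compared to Pr rats, with no overlap. Its levels were 4.39, 4.36, 3.88, 4.05 and 3.91 in ExpPE and 3.73, 3.72, 3.51, 3.51 and 3.28 in Pr rats. All ExpPE animals were above the highest Pr animal, by at least the gap from 3.73 to 3.88, and the mean level lay below the background level. The difference was 0.57 (SE 0.15, unadjusted p = 0.0019) and 0.40 without ExpPE1 and ExpPE2, where the fold was below the threshold. With quantile normalization once more the difference was 0.38, also short in fold. Kcnq3 encodes a subunit of the M current, which holds neurons near rest. It was at 5.96, 4.68, 3.75, 4.08 and 4.11 in ExpPE and at 3.22, 3.36, 2.90, 3.41 and 4.06 in Pr rats. The groups overlapped only through Pr5, and the difference of 1.13 (SE 0.34) was 0.59 without ExpPE1 and ExpPE2, still past the threshold.

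Other potassium channel subunits that passed were Kcnj3 (0.81), a G protein-gated inward rectifier that lay below the background level, Kcnk9 (0.86), an acid-sensitive leak channel, and Kcnmb4 (0.58), the beta 4 subunit of the large-conductance calcium-activated channel. Kcnk9 ranged from 4.20 to 5.91 in ExpPE rats, with ExpPE1 and ExpPE2 on top, and 4 of the Pr rats lay between 3.95 and 3.99 while Pr5 was at 4.83. Kcnmb4 was highest in the same pair, at 5.72 and 5.33. ExpPE3, at 4.08, was below the Pr range of 4.11 to 4.41, and ExpPE4 and ExpPE5, at 4.69 and 4.43, were above it. None of the 3 passed without ExpPE1 and ExpPE2. Kcnh8, an ether-a-go-go channel, had groups that did not overlap, at 3.93 to 4.48 and 3.33 to 3.92, and a difference of 0.48 that fell just short in fold (1.39). Its mean level lay below the background level. Hcn4, a pacemaker channel, differed by 0.41 and did not pass in fold either.

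By family, 4 of 39 voltage-gated potassium channel genes passed as higher and 0 as lower, with a median difference of 0.23. This is near the median of 0.19 over all genes of the same intensity decile, and 17 of the 39 lay below the background level. With quantile normalization once more 1 of the 39 passed. Without ExpPE1 and ExpPE2 4 of the 39 passed as higher, Kcna6 not among them, and the median was 0.15. Inward rectifiers (1 of 15 higher), two-pore channels (1 of 13) and calcium- and sodium-activated channels (1 of 12) had medians of 0.14, 0.24 and 0.14, against 0.19, 0.17 and 0.17 in their deciles. The beta subunit gene Kcnmb4 was counted with the calcium- and sodium-activated channels. None of the 11 genes on the list of other auxiliary subunits and none of the 4 pacemaker channel genes passed.

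Calcium and sodium channel subunits gave 3 further genes. Cacnb3, the beta 3 subunit of voltage-gated calcium channels, was at 6.19, 5.94, 5.59, 5.71 and 5.79 in ExpPE and at 4.85, 5.62, 5.23, 5.56 and 5.42 in Pr rats. Only ExpPE3 was below a Pr animal, and the difference was 0.50 (SE 0.17), or 0.36 without ExpPE1 and ExpPE2. Cacng3, which encodes a gamma subunit that in brain partners glutamate receptors, differed by 0.65 but lay below the background level, at 2.70 to 3.81 and 2.51 to 2.82. Scn2a, a neuronal sodium channel, differed by 0.58 and was low in ExpPE2 only, at 4.25 against 5.06 to 5.33 in the other ExpPE rats. Of 25 calcium channel genes 2 passed and of 14 sodium channel genes 1 passed, all higher. The median of the sodium channel list was 0.39 with all animals and -0.04 without ExpPE1 and ExpPE2.

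Genes of nerve terminals and secretory granules were high in ExpPE1 and ExpPE2. Of 41 synaptic vesicle and release genes 8 passed as higher and 0 as lower, all 41 differences were above 0, and the median was 0.47. Of 22 neurosecretory granule and catecholamine genes 5 were higher and 1 lower, with a median of 0.88, and of 24 neuronal cytoskeleton and identity genes 3 were higher, with a median of 0.91. With this pair left out, the 3 medians were 0.13, 0.06 and -0.13, and 1, 0 and 1 genes passed. The scores of ExpPE1 and ExpPE2 were 2.50 and 1.35 for the neuronal cytoskeleton list, against -0.61 to -0.40 in the other ExpPE and -0.79 to 0.18 in Pr rats.

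Syngr3, a synaptic vesicle protein, shows the pattern. It was at 8.09, 6.34, 4.68, 4.86 and 4.43 in ExpPE and at 4.00, 4.31, 4.13, 4.38 and 5.04 in Pr rats. ExpPE1 was far above every other animal, and the difference of 1.31 was 0.28 without ExpPE1 and ExpPE2. Scg3, a granin of dense-core vesicles below the background level in the mean, differed by 1.20 and by 0.33 without this pair. Cyb561, an electron carrier of the chromaffin granule, differed by 1.05 and by 0.15, and the axonal adhesion molecule L1cam by 1.12 and by 0.14. Members of the granule and catecholamine list that did not pass had the same order. Th, which makes the precursor of dopamine, was at 9.80 in ExpPE1 and 8.59 in ExpPE2, at 7.10 in Pr5, and at 3.08 to 4.36 in the other 7. Dbh, which makes noradrenaline, was at 11.4, 9.98 and 8.05 in these 3 animals. The part of nerve or chromaffin tissue in these results was not tested.

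Among other neuronal genes 2 kept their call without that pair, Slitrk1 and Lrfn1. Chga, chromogranin A, was at 5.25, 5.29, 3.97, 4.79 and 4.08 in ExpPE and at 3.96, 3.71, 3.71, 3.71 and 3.93 in Pr rats. The groups did not overlap, although ExpPE3 and Pr1 nearly met, and the difference of 0.87 (SE 0.26) was 0.48 without ExpPE1 and ExpPE2, with a p of 0.059. Slitrk1 (0.80) and Lrfn1 (0.75), adhesion proteins of the synapse, passed in all settings tried that held them. Both were too dim for the setting of genes above the median intensity. Slitrk1 was at 4.32 to 5.40 in ExpPE and 3.90 to 4.41 in Pr rats, with ExpPE5 alone inside the Pr range. Syn3, a synapsin that tethers vesicles, differed by 0.62 and by 0.41, where its fold was below the threshold. Chrna1, the muscle nicotinic receptor subunit, differed by 0.91 and by only 0.24 without the pair, and thus lost its call like Syngr3 and Scg3.

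Schwann cell genes followed in part. The scores of this list were 0.42, 0.70, 0.16, 0.03 and -0.38 in ExpPE and -0.21, -0.12, -0.35, -0.19 and -0.06 in Pr rats. ExpPE1 to ExpPE4 were above all Pr rats, whereas ExpPE5 was below all of them. Of 20 genes on this list 4 passed as higher and none passed without ExpPE1 and ExpPE2, where the median fell from 0.39 to 0.09. Pcsk1, the convertase that cuts prohormones, was the 1 granule gene on the lower side, with -0.92, or -0.86 with a p of 0.065 without the pair.

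**Figure D3:**
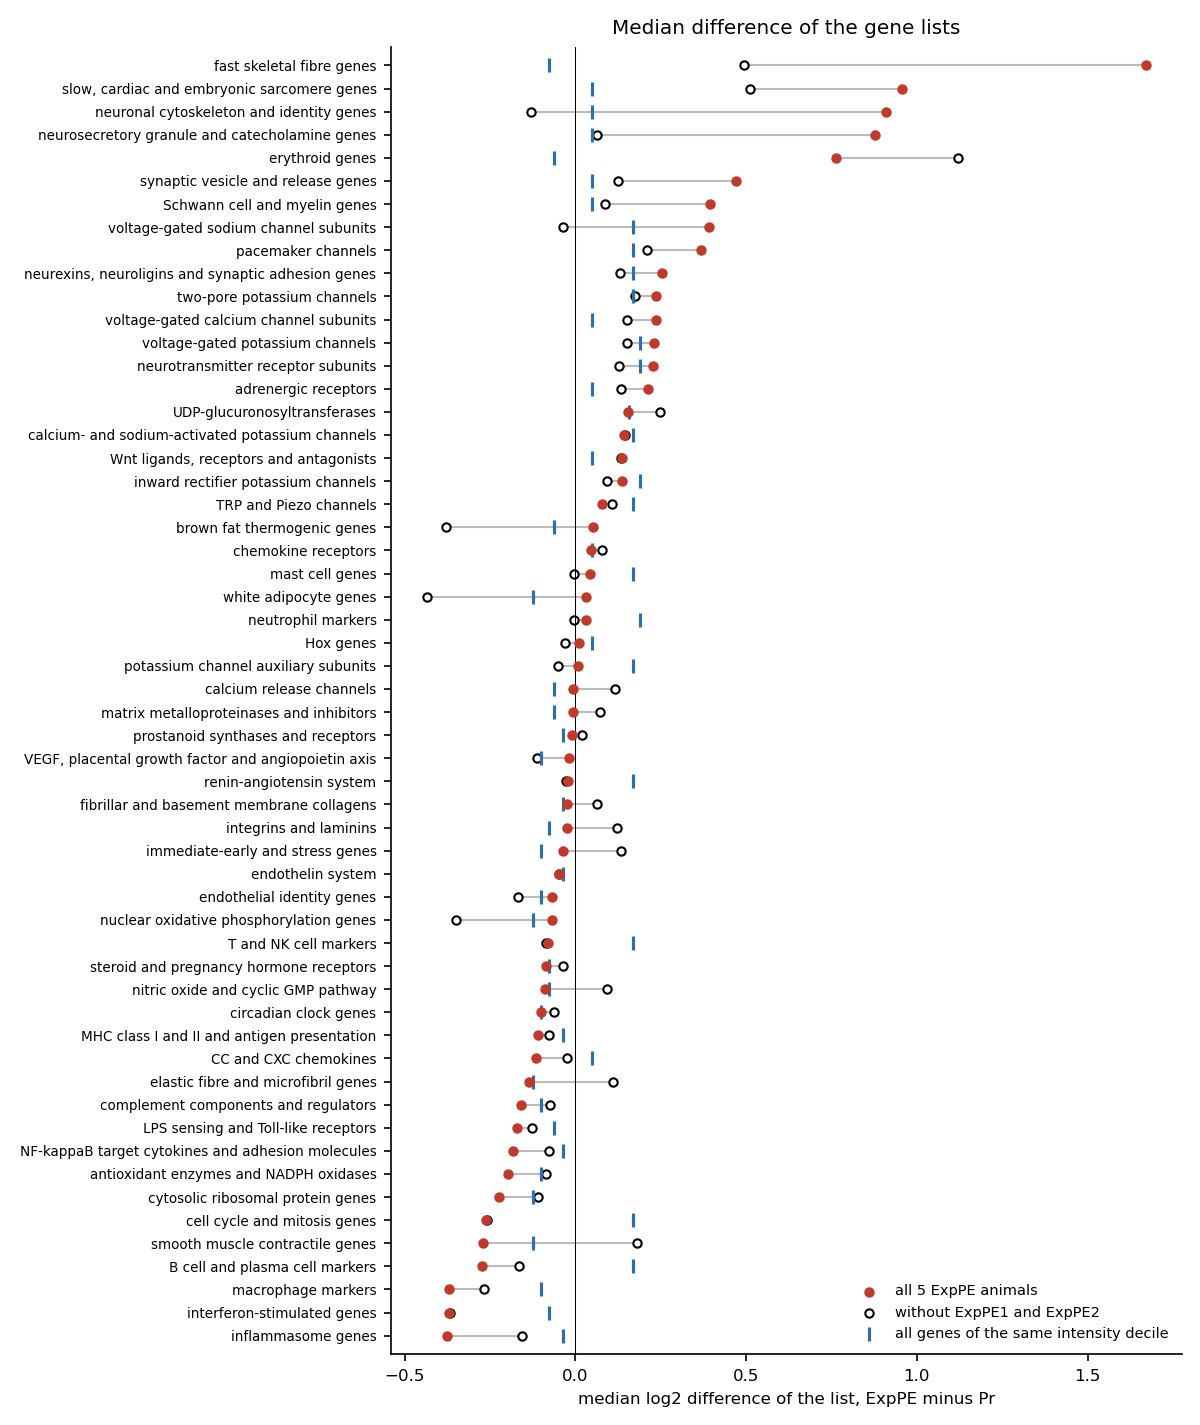
Median log2 difference of 56 gene lists with all animals (red), without ExpPE1 and ExpPE2 (open) and over all genes of the same intensity decile (blue ticks). Without the pair the median of fast fibre genes went from 1.67 to 0.49 and that of white adipocyte genes from 0.03 to -0.43, and the interferon list stays at -0.37.

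Single genes of the vasoactive systems passed, from lists of 7 to 20 genes, where 2.72% of all genes passed. Nos1, the neuronal nitric oxide synthase, was at 4.63, 5.90, 5.96, 5.14 and 5.21 in ExpPE and at 5.37, 5.44, 4.13, 4.00 and 4.19 in Pr rats. The ranges overlapped through ExpPE1 and through Pr1 and Pr2, and the difference was 0.74 (SE 0.34). Gch1, which makes the cofactor that nitric oxide synthases need, differed by 0.64 and was highest in ExpPE3 and ExpPE5, at 5.74 and 6.21. The 2 were the sole members of 20 in the nitric oxide and cyclic GMP pathway to pass, and the median of the list was -0.09. Edn3, an endothelin, was the 1 of 7 genes of its system to pass. It differed by 0.54 with all animals and by 0.12 without ExpPE1 and ExpPE2. Ptger1, the EP1 receptor for prostaglandin E2, differed by 0.53, the 1 of 18 prostanoid genes to pass. None of 10 renin-angiotensin genes and none of 9 adrenergic receptors passed. Ang2, 1 of 18 genes in the angiogenic list, passed with 0.54, but it encodes a ribonuclease of the angiogenin family and not angiopoietin-2, and no VEGF, placental growth factor, Flt1 or endoglin gene passed. Esm1, the endothelial proteoglycan endocan, was the 1 of 19 endothelial genes to pass, with -0.83, at 5.00 to 6.48 in ExpPE and 5.89 to 7.91 in Pr rats, and its p was 0.051 without ExpPE1 and ExpPE2.

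Interferon-stimulated genes led the lower side. Of 65 such genes 12 passed as lower and 0 as higher, only 4 differences were above 0, and the median was -0.37 against -0.08 in the same decile. Ifitm1, a membrane protein that blocks virus entry, was at 6.87, 7.89, 7.38, 6.93 and 6.89 in ExpPE and at 7.98, 8.52, 8.60, 7.83 and 7.50 in Pr rats. ExpPE2 reached the lower Pr values and the other 4 did not, and the mean of NPr rats was 6.81. The difference was -0.89 (SE 0.24, unadjusted p = 0.0019). Rtp4, a chaperone of receptors at the membrane, was at 5.98, 5.72, 6.19, 5.67 and 5.72 in ExpPE and at 6.69, 6.30, 7.06, 6.46 and 6.02 in Pr rats. Only Pr5 was within the ExpPE range, and the difference was -0.65 (SE 0.17). Usp18, which strips ISG15 from proteins and curbs the interferon receptor, differed by -0.76. All 3 passed under every alternative tried.

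The size of the group result depended on 1 animal. Pr3 had an interferon score of 0.90, against -0.15 to 0.16 in the other Pr rats and -0.34 to 0.02 in ExpPE rats. Without Pr3, 6 genes of the list passed as lower and the median was -0.17. Without ExpPE1 and ExpPE2 the median stayed at -0.37, with 5 lower and 2 higher. All 4 NPr rats were below every pregnant rat, with scores of at most -0.85. The ExpPE range overlapped with the scores of Pr2 and Pr5.

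Interferon acts on many of these genes through a response element in the promoter. Its core, GAAANNGAAA or on the other strand TTTCNNTTTC, was searched in the 250 bases before the start of each gene in RefSeq promoters (build GRCr8). It was present in 3.24% of the 14948 array genes with a promoter entry and in 30 of 49 such interferon-stimulated genes. Of the 12 lower genes 8 had an entry and 5 held the core. These 5 are shown because their promoters hold this core. Each window holds the core nearest the start, in capitals, with 20 bases to each side where the 250 bases allow.
XAF1 (chr10:57415904-57415934, plus strand): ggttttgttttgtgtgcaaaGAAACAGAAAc
Ifi44l (chr2:243328644-243328693, plus strand): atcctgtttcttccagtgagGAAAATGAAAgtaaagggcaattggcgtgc
Oasl2 (chr12:47383307-47383356, minus strand): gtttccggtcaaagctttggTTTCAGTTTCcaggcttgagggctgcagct
Gbp1 (chr2:234072281-234072330, plus strand): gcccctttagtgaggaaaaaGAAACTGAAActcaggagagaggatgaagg
Irgm (chr10:33742583-33742632, minus strand): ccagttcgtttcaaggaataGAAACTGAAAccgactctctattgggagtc
Their differences were -0.60 for XAF1, -0.60 for Ifi44l, -0.49 for Oasl2, -0.92 for Gbp1 and -0.54 for Irgm. Only Ifi44l of the 5 passed without ExpPE1 and ExpPE2, and only XAF1 without Pr3. A match is a stretch of letters and was not tested for binding.

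Macrophage and Toll-like receptor genes leaned the same way. All 23 macrophage markers had differences below 0, with a median of -0.37, but only Lyz2, lysozyme, passed (-0.55). The score of Pr3 was 0.82 and the others ranged from -0.68 to 0.24. Without Pr3 the median was -0.17 and none passed, and none passed without ExpPE1 and ExpPE2 either. Among 26 genes of LPS sensing and Toll-like receptors 4 passed as lower and 0 as higher, with a median of -0.17. Without Pr3 only 1 of the 26 passed and the median was -0.08, and without ExpPE1 and ExpPE2 2 passed. Cd180, a Toll-like protein of B cells and macrophages, was at 5.17, 5.87, 5.82, 5.29 and 5.42 in ExpPE and at 6.03, 6.38, 7.76, 5.87 and 6.72 in Pr rats. The groups met only at 5.87, and the difference was -1.04 (SE 0.29), or -0.74 without Pr3. Ly86, its secreted partner MD-1, differed by -0.53, and by -0.36 without Pr3. Tlr7, the sensor of single-stranded RNA, differed by -0.64, by -0.38 without Pr3 and by -0.54 without ExpPE1 and ExpPE2, and passed in neither of these.

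Some inflammasome and cytokine genes passed as lower. Casp1, which matures interleukin-1 beta, was at 5.50, 5.80, 6.38, 5.88 and 6.44 in ExpPE and at 6.87, 6.64, 7.64, 6.35 and 6.26 in Pr rats. ExpPE3 and ExpPE5 overlapped with the lower Pr rats, and the difference was -0.75 (SE 0.24), or -0.52 with a p of 0.072 without ExpPE1 and ExpPE2. The sensor Nlrp1b had the largest lower difference of all genes that passed, -1.57. It was split within ExpPE rats into 3.36 and 3.68 on one side and 5.63 to 6.11 on the other. Its levels in NPr rats were split as well, at 3.75 and 3.81 against 5.70 and 6.62. Its difference was -1.29 with a p of 0.077 when ExpPE1 and ExpPE2 were left out. Of 18 inflammasome genes 3 passed, all lower, where 1% of all genes were lower. Their median difference was -0.38, against -0.04 over all genes of the same decile. Without ExpPE1 and ExpPE2 1 of the 18 passed, and without Pr3 2 passed and the median was -0.17. Ccl11, eotaxin, which attracts eosinophils, was at 6.89, 7.13, 6.40, 6.94 and 5.82 in ExpPE and at 8.52, 8.22, 6.88, 8.72 and 7.62 in Pr rats. Pr3 alone was within the ExpPE range, and the difference of -1.36 (SE 0.43) was -1.64 without it. It was the 1 of 36 chemokine genes to pass, a share near the 2.72% over all genes. Il12a, a subunit of interleukin-12, differed by -0.99 and was highest in Pr2 and Pr4, at 6.68 and 7.34. Its difference was -0.52 with a p of 0.24 without ExpPE1 and ExpPE2.

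B cell and antigen presentation genes had some lower members. Cd22, an inhibitory receptor of B cells, was at 5.02, 5.70, 5.57, 5.76 and 5.62 in ExpPE and at 5.85, 6.31, 5.93, 5.90 and 6.93 in Pr rats. The groups did not overlap, and the difference was -0.65 (SE 0.20). Of 17 B cell genes 2 were lower, Cd180 and Cd22, and Pr5 had the highest score, 1.21. Il2rg, the common gamma chain of several interleukin receptors, did not overlap either, at 6.96 to 7.25 and 7.37 to 8.55, with a difference of -0.73. March1, a ubiquitin ligase that removes class II molecules from the surface, differed by -0.53 with no overlap, and by -0.46 without ExpPE1 and ExpPE2, below the threshold in fold. RT1-Da and RT1-CE5, a class II and a class I gene of the rat histocompatibility complex, differed by -0.59 and -1.09, the 2 of 43 on their list to pass, and probes of this family may share signal between near copies. Mcpt9, a mast cell protease, was the 1 of 19 mast cell genes to pass, with 1.18, at 3.86 to 6.02 in ExpPE and 3.24 to 4.18 in Pr rats. None of 22 listed T and natural killer cell markers and none of 17 listed neutrophil markers passed.

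Cell cycle genes were lower against the direction of equally dim genes. Of 46 such genes 6 passed as lower and 0 as higher, and the median was -0.26, against 0.17 over all genes of the same decile. With quantile normalization once more 12 passed as lower, and without ExpPE1 and ExpPE2 the median was -0.26 with 4 lower. Ndc80, which couples the kinetochore to the spindle, was at 3.56, 4.61, 4.22, 3.90 and 3.75 in ExpPE and at 4.82, 4.48, 4.82, 5.20 and 4.29 in Pr rats. Only ExpPE2 lay inside the Pr range, and the difference was -0.72 (SE 0.22). Pbk, a mitotic kinase, and Itgb3bp, a centromere protein, had groups that did not overlap, with differences of -0.50 and -0.66, both below the background level. Pbk, at -0.47, fell short in fold without ExpPE1 and ExpPE2. Hist2h4, a gene of histone H4, was bright and did not overlap. It was at 8.93, 9.08, 8.997, 9.16 and 9.40 in ExpPE and at 9.74, 9.84, 9.74, 9.73 and 9.58 in Pr rats, with a difference of -0.61 (SE 0.16). Its Pr values lay close together and ExpPE5 came nearest to them. Histone H4 has many near-identical copies, so the signal may come from more than one.

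Ribosomal protein genes gave 3 lower members of 41, among them Rps3a (-0.67) and Rpl23a (-1.07), and a median of -0.22 against -0.12 in the decile. Rps3a was at 7.36, 6.71, 8.20, 7.34 and 8.42 in ExpPE and between 8.21 and 8.39 in all Pr rats. ExpPE3 and ExpPE5 were at the Pr level and the other 3 below it. None of the 41 passed without ExpPE1 and ExpPE2. Many ribosomal genes have processed pseudogenes, and probes may read both. None of 79 nuclear genes of oxidative phosphorylation passed.

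**Figure D4:**
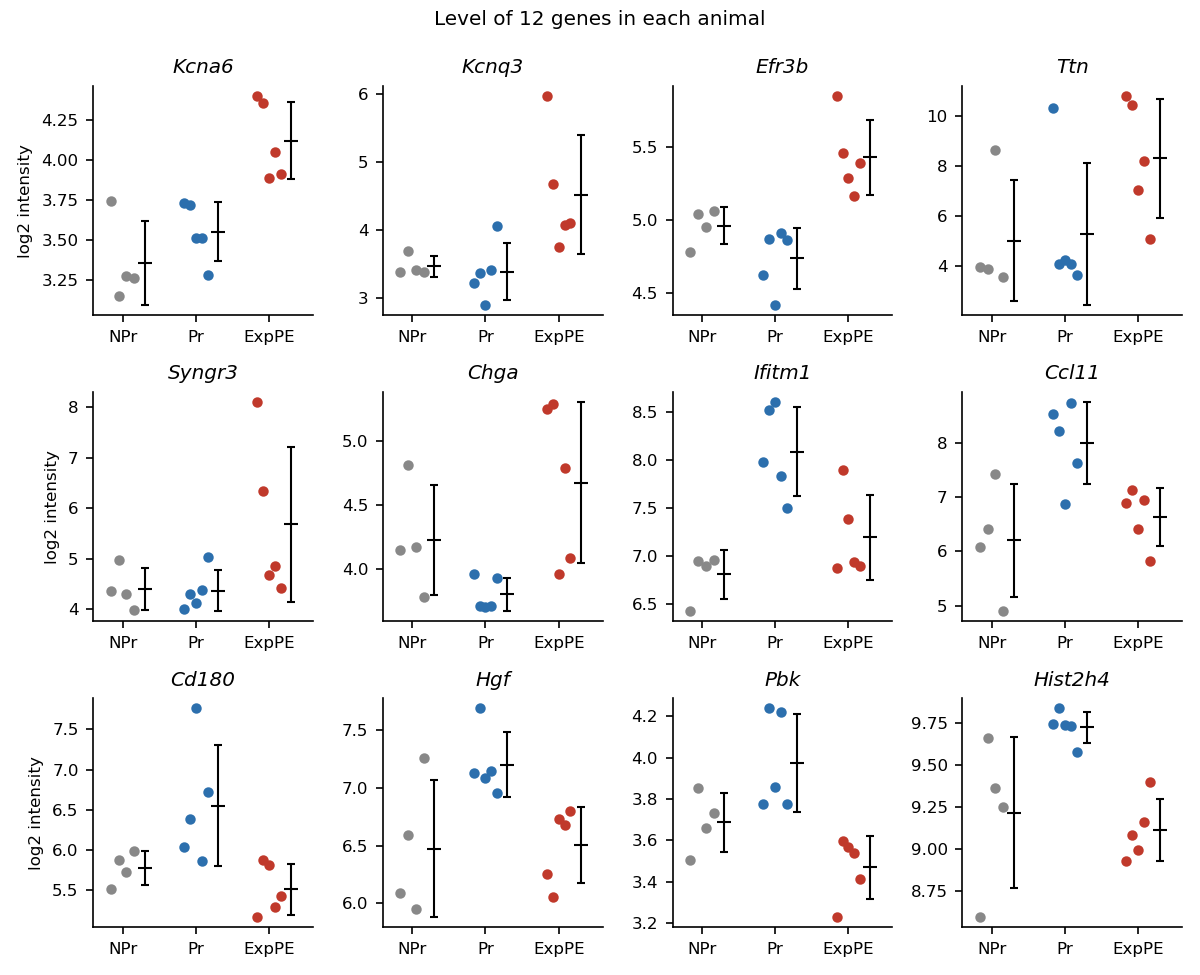
Log2 intensity of 12 genes in each animal (points) of NPr, Pr and ExpPE rats, with the mean and SD of each group beside them. Kcna6, Efr3b, Chga, Hgf, Pbk and Hist2h4 have no overlap between ExpPE and Pr, whereas Ttn and Syngr3 rest on ExpPE1 and ExpPE2, with Pr1 also high for Ttn.

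Genes of wall growth and patterning differed in a few members. Hgf, hepatocyte growth factor, was at 6.25, 6.05, 6.73, 6.68 and 6.80 in ExpPE and at 7.13, 7.69, 7.09, 7.15 and 6.95 in Pr rats. The groups did not overlap, and the difference was -0.70 (SE 0.23), or -0.46 without ExpPE1 and ExpPE2, with a p of 0.091. Wnt16, a Wnt ligand, differed by -1.04, and of the R-spondins, which enhance Wnt signals, Rspo3 differed by -0.72 and Rspo2 by 0.55. The 3 were those of 49 Wnt genes to pass. None of the 3 passed without ExpPE1 and ExpPE2, with differences of -0.60, -0.31 and 0.23. Col8a1, a short-chain collagen of the vessel wall, and Col6a5 differed by -0.82 each, and Col11a2 by 0.55. Of 41 collagen genes 1 was thus higher and 2 lower. Col8a1 (-0.46) and Col11a2 (0.37) no longer passed without ExpPE1 and ExpPE2. None of 21 elastic fibre genes passed. Of 45 metalloproteinases and inhibitors only Mmp15 did, with 0.75, or 0.22 with a p of 0.47 without ExpPE1 and ExpPE2. Itgal, the leukocyte integrin LFA-1 alpha chain, was the 1 of 37 integrin and laminin genes to pass, with -0.87, and it was highest in Pr3 at 8.57 and did not pass without it (-0.47). Such shares of 1 gene in a list of this size are near the background of 2.72%.

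Hox genes keep the position of a cell along the body axis. Hoxc9 was at 5.58, 6.36, 6.44, 6.30 and 5.96 in ExpPE and at 7.01, 7.07, 6.32, 7.19 and 6.53 in Pr rats. Pr3 alone was within the ExpPE range, and the difference was -0.70 (SE 0.19). Hoxc10 and Hoxc5 of the same cluster differed by -0.91 and -0.59, and these 3 of 25 Hox genes passed, with 0 higher and a list median of 0.01. Hoxc5 did not pass without ExpPE1 and ExpPE2 (-0.45). Of 35 antioxidant enzymes and NADPH oxidases 3 were lower, the peroxiredoxins Prdx6 (-0.51) and Prdx4 (-0.49) and the plasma glutathione peroxidase Gpx3 (-0.52). None of the 3 passed without Pr3, and without ExpPE1 and ExpPE2 only Prdx6 did.

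Efr3b, which anchors a lipid kinase at the plasma membrane, had the smallest p of all genes that passed. It was at 5.85, 5.46, 5.29, 5.17 and 5.39 in ExpPE and at 4.63, 4.87, 4.42, 4.91 and 4.86 in Pr rats. Every ExpPE animal was above every Pr animal, NPr rats had a mean of 4.96, and the difference was 0.69 (SE 0.15, unadjusted p = 0.000282, adjusted p = 0.574). Gnaz, the alpha subunit of the G protein Gz, was at 4.79 to 5.90 against 4.26 to 4.72, and Tyro3, a receptor kinase of the TAM family, at 4.84 to 5.37 against 4.35 to 4.72. Their differences were 0.76 and 0.55, and that of Tyro3, at 0.48 without ExpPE1 and ExpPE2, fell short in fold there. Psmg2, a chaperone of proteasome assembly, was lower with no overlap, at 5.22 to 5.72 against 5.87 to 6.12, and differed by -0.51.

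Erythroid genes had a high median with few calls. Of 27 genes 2 passed as higher, among them Add2, which neurons also express, and the median was 0.76. Their scores were -0.73, 0.19, 0.78, 0.21 and 1.27 in ExpPE and 0.66, -1.33, -0.26, 0.09 and -0.88 in Pr rats, so that both groups spread widely. Without ExpPE1 and ExpPE2 15 passed as higher and 1 as lower, and without Pr1 as well 22 passed as higher. Blood left in the vessel was not measured otherwise. White and brown fat genes had medians of 0.03 and 0.05, with 0 genes past the threshold, and medians of -0.43 and -0.38 without ExpPE1 and ExpPE2. In all, 16 of the 56 lists had no gene past the threshold in either direction.

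MicroRNAs silence messenger RNAs that pair with their seed, bases 2 to 8. The array held 244 microRNA genes, of which 4 passed as higher and 1 as lower. This was 2.05% and no more than the 2.72% over all genes, so the 5 are described as values alone. Mir134 was at 4.52, 5.48, 4.49, 5.75 and 4.94 in ExpPE and at 4.33, 4.52, 4.25, 4.43 and 4.63 in Pr rats. The highest were ExpPE2 and ExpPE4, the animals whose dim genes were high in general, and the difference was 0.60. Mir138-2 differed by 0.59, Mir483 by 0.54 and Mir666 by 0.52, and Mirlet7f-1 by -0.52. Only Mir134 and Mir666 of the 5 passed without ExpPE1 and ExpPE2. Array probes of a microRNA gene do not tell its arms apart. The 5p arms are shown to give the seeds (RefSeq, GRCr8), with the seed in capitals.
rno-miR-134-5p: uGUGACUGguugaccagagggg
rno-miR-138-5p: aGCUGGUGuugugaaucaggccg
rno-miR-483-5p: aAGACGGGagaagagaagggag
rno-miR-666-5p: aGCGGGCAcggcugugagag
rno-let-7f-5p: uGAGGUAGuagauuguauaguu
No seed was shared among them.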

How the data were processed

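Total RNA of whole abdominal aortas was hybridized to Affymetrix Rat Gene 1.1 ST arrays, 1 per animal. The authors computed expression by robust multichip average (RMA, version not given in the sources used here), which includes quantile normalisation over all 14 arrays, over probes regrouped by gene with a custom annotation, and deposited intensities on the linear scale. Deposited fold changes and p-values of the authors' own comparisons were not used, and 0 columns of animals were left out. The log2 of the intensities was fitted with limma 3.58.1 (R 4.3.3), with 1 mean per group, all 14 arrays and a prior variance following intensity. No genes were filtered. The paired test of the methods has no stated pairing variable, and none was fitted. The labels do not name litters or batches, and p-values measure the spread between animals. With arrays their number limits the precision.

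The comparison, the 56 gene lists and the genes to name were chosen with earlier results of these data known. The rule named 118 genes: those named by the study, the 10 smallest p in each direction, up to 3 members of each list and direction, and the 10 largest differences without overlap in each direction. The genes that the study names were chosen on these same samples and are no independent evidence. Hence 18 of its 33 such genes passed as higher and 11 as lower. XAF1, Ifi44l, Oasl2, Gbp1, Irgm and the microRNA genes were named after their values were seen. Some genes under the rule are not reported here. Of the 19357 genes, 18790 matched the RefSeq table by Entrez ID, and 234 of 244 microRNA genes matched the microRNA table. Lists are described by counts and medians, with no test of a list. Scripts ran in Python 3.11.15 with numpy 2.4.6, pandas 2.3.3 and matplotlib 3.10.9, and the fit was tested on simulated data.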

Additional observations from a re-analysis of the deposited data

Results flagged for a closer look

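Within the groups of 5 animals, 1 animal lay far from the other 4 in 16 of 206 sets of values (genes and list scores named in the text, each group apart), by the gap to its nearest neighbour over the whole range. This is 7.77%. The cutoff would flag about 1 in 20 independent sets of normally distributed values. The sets here share animals, and many genes were chosen by these same values, so that rate does not measure chance here.

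Pr1 was the highest Pr animal for Ttn at 10.3, against 3.66 to 4.24 in the others, for Myh3 at 3.57 and for Gnaz at 4.72. It also had the highest Pr scores for fast skeletal fibre genes, 3.83, and for slow, cardiac and embryonic sarcomere genes, 1.00. Pr3 was highest for Irgm at 9.56 against 7.83 to 8.15, for Itgal at 8.57 and for the inflammasome score at 0.66, and lowest for Col6a5 at 5.19. Pr5 was highest for Kcnk9 at 4.83, for the B cell score at 1.21 and for the synaptic vesicle score at 0.041. Pr2 was highest for Mcpt9 at 4.18 and for Hgf at 7.69. In ExpPE rats, ExpPE2 was lowest for Scn2a at 4.25, and ExpPE1 was lowest for Cd22 at 5.02.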

How the results depend on the processing

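No setting gave a gene past an adjusted p under 0.05. Unadjusted p under 0.05 was reached by 972 to 2822 genes when 1 animal was left out, and by 2123 with array quality weights. With 1 animal left out the count at the study threshold, 527, ranged from 337 (without ExpPE2) to 1103 (without ExpPE3), the higher genes from 157 (without ExpPE2) to 782 (without ExpPE3), and the lower genes from 145 (without Pr3) to 321 (without ExpPE3). Without Pr5 320 genes were lower, and 136 without ExpPE1, ExpPE2 and Pr1. Among genes above the median intensity, where fewer genes were tested, 169 passed, 44 higher and 125 lower. Quantile normalization once more gave 150 higher genes. The exchanged titles gave 194 higher and 333 lower. Array weights gave 522 genes, of which 284 were shared with the 527. The cause of the other shifts was not tested.

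Replicate numbers of the titles as a block gave 548 genes, 336 higher and 212 lower, and 0 past the adjusted p. Deviations of same-numbered ExpPE and Pr animals correlated by 0.39, -0.14, 0.19, 0.17 and -0.11, and 1 of 5 was closest to its own number, so the numbers were not taken as pairs.

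Of 85 genes named with values, none changed sign under these alternatives, the exchanged titles apart. Of these, 18 passed under all alternatives that held the gene. The setting of genes above the median intensity held only 38 of the 85. Without ExpPE1 and ExpPE2, 45 of the 85 lost the threshold. Leaving out Pr1 with this pair was chosen after seeing the data, as was reading the lists without Pr3. List medians moved by more than the spread between animals for the sodium channel, neuronal cytoskeleton and Schwann cell lists without ExpPE1 and ExpPE2.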
